A study of Mus musculus with 16 samples.

Results

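Lamp5 interneurons of the medial prefrontal cortex (PFC) were taken from single-nucleus RNA-Seq of 16 mice as the nuclei with at least 2 unique molecular identifiers (UMIs, each a counted RNA molecule) of Gad1 and Gad2 together, at least 1 UMI of Lamp5, and none of Sst, Pvalb, Vip or Slc17a7. The rule kept 289 of 114512 nuclei (0.252%), which was 4.56% of the 6333 nuclei with at least 2 Gad UMIs. They held 581025 UMIs, with a median of 1838 UMIs in a nucleus. The study exposed 3xTg-AD mice and WT mice to alcohol vapor or to air, to learn how a history of repeated alcohol intoxication and genetic susceptibility to Alzheimer's disease act together in the PFC.

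The mice were male and 22 weeks old, with 4 in each group. 3xTg-AD mice carry human APP and tau transgenes with familial mutations and a mutant presenilin knock-in, on a mixed B6;129 background, and WT mice had a background of the same strains. No human transgene is among the genes measured. Alcohol-exposed mice of both genotypes received ethanol with pyrazole, an inhibitor of alcohol dehydrogenase, before each of the intermittent vapor sessions. WT controls and 3xTg-AD controls also received pyrazole, in saline, and stood in air chambers, so that pyrazole was shared by all 4 groups. Prelimbic and infralimbic tissue was dissected, and each library came from 1 mouse, which is numbered here as in the labels.

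Lamp5 interneurons are GABAergic cells of the caudal ganglionic eminence for the most part, and many of them are neurogliaform cells. Such cells have dense short axons that release GABA into the surrounding tissue as well as at synapses, so that a single cell reaches many neighbors through GABA-A and GABA-B receptors. Those of layer 1 make the secreted proteins reelin and Ndnf and receive input from distant cortical areas, and the peptide neuropeptide Y (Npy) is found in many of them. A smaller group that expresses Lhx6, a factor of the medial ganglionic eminence, also carries Lamp5.

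The values that chose the nuclei are given as a description. Lamp5, which encodes a lysosome-associated membrane protein of neurons, had 1 UMI in 226 of the 289 nuclei and 2 to 5 UMIs in the other 63. Gad1, a GABA-synthesizing enzyme, was found in 83.4% of the nuclei and Gad2, the second such enzyme, in 82.7%, and 129 nuclei stood at the threshold of 2 Gad UMIs. A single Lamp5 UMI is weak evidence of identity, since Lamp5 was also found in 19.3% of 29001 glutamatergic nuclei (at least 2 Slc17a7 UMIs and no Gad UMI, median of 2535 UMIs) and in 12.6% of 1356 Gad nuclei with an Sst UMI. Nuclei inside and outside the Gad threshold differed in the markers that the rule did not use. Kit stood at 401 counts per 1e+06 UMIs (CPM) in the nuclei with 2 Gad UMIs, at 1211 CPM in the 102 nuclei with at least 4, and at 167 CPM in the 432 nuclei with 1 Gad UMI that otherwise met the rule. For Npy the same 3 sets held 367, 1401 and 239.8 CPM. The nuclei near the Gad threshold therefore held less of the marker RNA than those far inside it. Other edges of the rule differed. Kit and Npy stood at 459 and 396 CPM in 156 nuclei left out for 1 Slc17a7 UMI alone. In 231 nuclei left out for an Sst, Pvalb or Vip UMI they stood at 602 and 678 CPM. Both sets held more than the nuclei with 2 Gad UMIs. The 1379 nuclei left out for want of a Lamp5 UMI held less, at 226 and 285 CPM, as did 118 with at least 2 Slc17a7 UMIs (226 and 248 CPM).

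The label was checked with 12 other markers of Lamp5 neurons. Of the 289 nuclei, 135 (46.7%) held a UMI of at least 3 of them and 46 (15.9%) held none. At least 3 markers were found in 12.1% of the 978 Sst nuclei, 10.4% of the 115 Pvalb nuclei, 9.92% of the 252 Vip nuclei and 2.18% of the glutamatergic nuclei. The comparison classes were chosen by the same form of rule from Gad nuclei with their own marker and without the other markers, and had median depths of 1886 UMIs for Sst, 2150 for Pvalb and 1540.5 for Vip. After each nucleus was thinned to 1000 UMIs, which left out 28 of the Lamp5 interneurons, the shares were 31.8%, 4.43%, 5.83%, 5.77% and 0.218% in the same order. Lamp5 markers were thus more frequent in these nuclei at equal depth, while more of the nuclei lacked 3 markers than had them, both before and after thinning.

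Ndnf, a secreted neurotrophic factor of layer 1 cells, was detected in 25.3% of the Lamp5 interneurons, in 5.11% of Sst nuclei and in 1.61% of glutamatergic nuclei. Kit, a receptor tyrosine kinase, was detected in 52.2%, against 12.9% of Sst nuclei and 32.1% of Vip nuclei. Reln, which encodes reelin, was found in 34.9%, against 23.0% of Sst nuclei and 9.13% of Vip nuclei. Sv2c, a synaptic vesicle protein, was found in 26.99% of the nuclei and Npy in 45.0%. At the other end, Cplx3, Cxcl14, Dock5, Eya4 and Egln3 were detected in 7.96%, 10.0%, 1.73%, 1.04% and 0.346% of the nuclei. Some markers of the list were more frequent elsewhere, since Eya4 was found in 4.70% of Sst and 12.2% of Pvalb nuclei, Cxcl14 in 13.9% of Vip nuclei, and Plch2, a phospholipase C, in 31.3% of Pvalb nuclei against 13.5% of the Lamp5 interneurons. Id2, an inhibitor of basic helix-loop-helix factors, was found in 23.2%, against 11.3% of Sst, 11.5% of Vip and 14.04% of glutamatergic nuclei. Lhx6 was found in 14 nuclei (4.84%), against 15.8% of Sst and 8.70% of Pvalb nuclei. Adarb2, an RNA-binding protein that marks the caudal lineage, was found in 46.7%, against 12.9% of Sst and 57.5% of Vip nuclei. Other lineage markers were mixed. Of the caudal ones, Prox1 was found in 12.8% against 4.70% of Sst nuclei and Npas1 in 2.77% against 15.8%. Of the medial ones, Satb1 was found in 11.1% against 33.4% of Sst nuclei and Nxph1 in 31.5% against 32.6%. Of the 5 markers of the Sncg class, Sncg, Krt73 and Slc17a8 were at 0 of 289 nuclei, which allows a share of up to 1.27% with a UMI by the exact binomial interval (counting error only), but they were found in at most 0.794% of Sst or Vip nuclei as well. The other 2, Cck and Cnr1, were found in 72.7% and 26.99% of the Lamp5 interneurons and in 70.2% and 29.96% of Sst nuclei, while Vip nuclei held them in 73.8% and 44.4%. Markers of other cells were present too, with Neurod6, a factor of glutamatergic neurons, in 12.1% of the nuclei against 32.0% of the glutamatergic nuclei. Nrgn and Camk2a, which are also on the list of glutamatergic markers, were found in 68.2% and 57.1% against 77.9% and 77.7%, and after thinning Nrgn was at 46.0% and 46.4%, so that Nrgn did not separate the 2 kinds of nuclei at equal depth. The astrocyte marker Slc1a2, a glutamate transporter, was found in 52.2% of the Lamp5 interneurons, 50.9% of Sst nuclei and 68.1% of glutamatergic nuclei.

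The nuclei were divided by an Ndnf UMI. Reln was found in 79.5% of the 73 nuclei with an Ndnf UMI and in 19.9% of the other 216, Kit in 84.9% and 41.2%, and Adarb2 in 76.7% and 36.6%. No nucleus with Ndnf held an Lhx6 UMI, against 6.48% of those without. Npy was found in 43.8% and 45.4%. The 8 mice with at least 5 nuclei with Ndnf and without it were compared with edgeR, with mouse as a block, over 146 genes, of which 8 (5.48%) passed an adjusted p of 0.05. None of the 8 mice was a 3xTg-AD control. Grik1, a kainate receptor subunit, was higher in the nuclei with Ndnf by 2.02 ± 0.37 on the log2 scale (SE, edgeR adjusted p = 0.00282) and kept its call with any of the 8 mice left out. Dlx6os1, a noncoding RNA of GABAergic neurons, was higher by 1.03 ± 0.21 (edgeR adjusted p = 0.00493). Adarb2, Csmd3, Rims2 and Kit were also higher, by 1.19, 0.90, 0.76 and 0.76. The mitochondrial gene mt-Atp6 fell by 0.65 and Apoe, a lipid carrier made mainly by glia, fell by 0.91 in the nuclei with Ndnf. Npy stood at -1.20 ± 0.41 on the same scale, without a call (edgeR adjusted p = 0.110). Apart from Grik1 these calls were less firm. With a mouse left out, Dlx6os1 lost its call in 1 of 8 fits, Adarb2 and Kit in 4 of 8, mt-Atp6 and Apoe in 5 of 8, Rims2 in 6 of 8, and Csmd3 in 3 of the 6 fits in which it passed the filter. The number of calls ranged from 1 to 15 with a mouse left out.

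**Figure D1:**
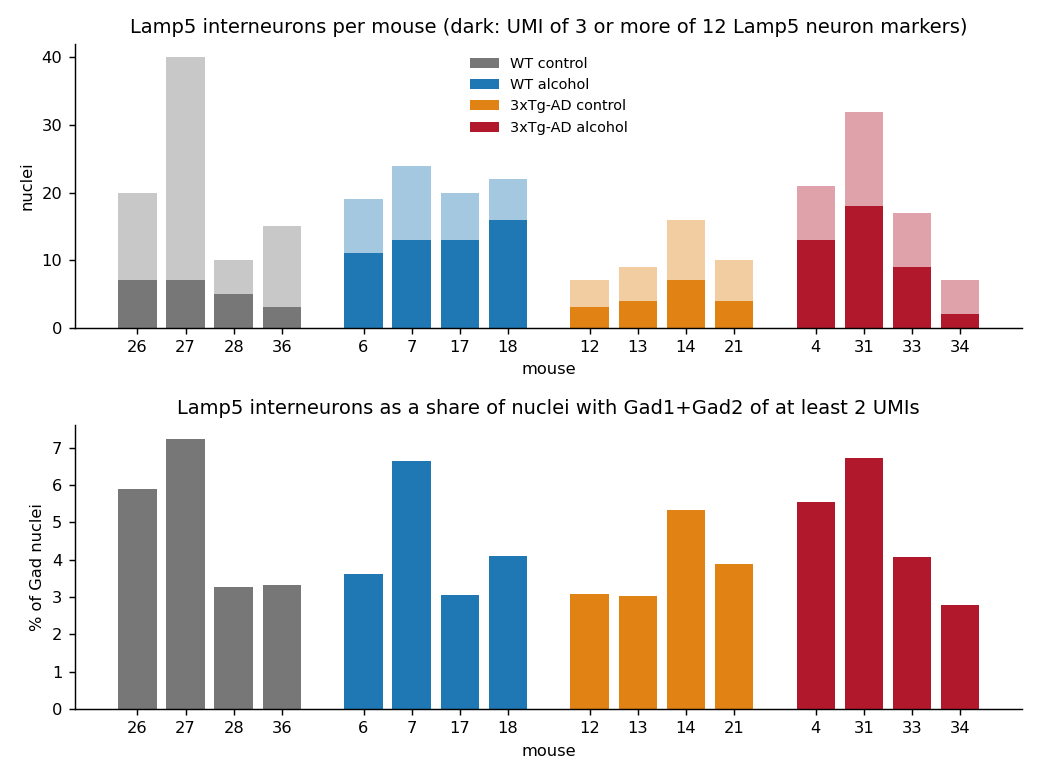
Number of Lamp5 interneurons in each of the 16 mice (upper panel, nuclei, with the dark part of each bar holding a UMI of at least 3 of 12 Lamp5 neuron markers) and their share of the nuclei with at least 2 Gad UMIs (lower panel, %). WT control 27 has the highest bar with 40 nuclei, of which 7 are dark.

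Each mouse gave between 7 and 40 Lamp5 interneurons. WT controls 26, 27, 28 and 36 gave 20, 40, 10 and 15, and the alcohol-exposed WT mice (6, 7, 17 and 18) gave 19, 24, 20 and 22. The 3xTg-AD controls 12, 13, 14 and 21 gave 7, 9, 16 and 10, and the alcohol-exposed 3xTg-AD mice (4, 31, 33 and 34) gave 21, 32, 17 and 7. The groups overlapped, except that every 3xTg-AD control gave fewer than every alcohol-exposed WT mouse. The Gad nuclei themselves made up 3.57% to 4.18% of all nuclei in 3xTg-AD controls and 4.39% to 11.1% in WT mice, without overlap. In alcohol-exposed 3xTg-AD mice they made up 4.16% to 6.61%. This difference in Gad nuclei was not tested. As a share of Gad nuclei the Lamp5 interneurons made up 4.93% ± 1.97 in WT controls, 4.36% ± 1.59 in alcohol-exposed WT mice, 3.83% ± 1.08 in 3xTg-AD controls and 4.78% ± 1.72 in alcohol-exposed 3xTg-AD mice (SD, n = 4). No difference in this share was detectable: over 7 contrasts the exact two-sided permutation test gave p between 0.314 and 0.886, all 0.886 after Benjamini-Hochberg adjustment, where the smallest p that 4 mice against 4 allow is 0.0286.

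Some mice stood apart. In WT control 27, 31 of the 40 nuclei held a UMI of Meis2, a homeobox factor of striatal and some white matter GABAergic neurons, and Meis2 stood at 1766 CPM there against 0 to 191 CPM in the other 15 mice. In the remaining mice 28 nuclei held a Meis2 UMI. Gm42418, a transcript that overlaps ribosomal RNA sequence, stood at 29536, 18443 and 10917 CPM in the Lamp5 interneurons of WT control 26, WT control 27 and 3xTg-AD control 12, and between 2014 and 3975 CPM in the others. None of the nuclei shared a barcode with another Lamp5 interneuron, and 14 shared one with a nucleus of any kind in another library. The fits between groups were repeated without WT controls 26 and 27 and 3xTg-AD control 12, and without the nuclei with a Meis2 UMI. Gene values from these fits are given for some of the called genes, and counts of calls are given at the end. The 14 nuclei with a shared barcode were not removed in any fit.

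**Figure D2:**
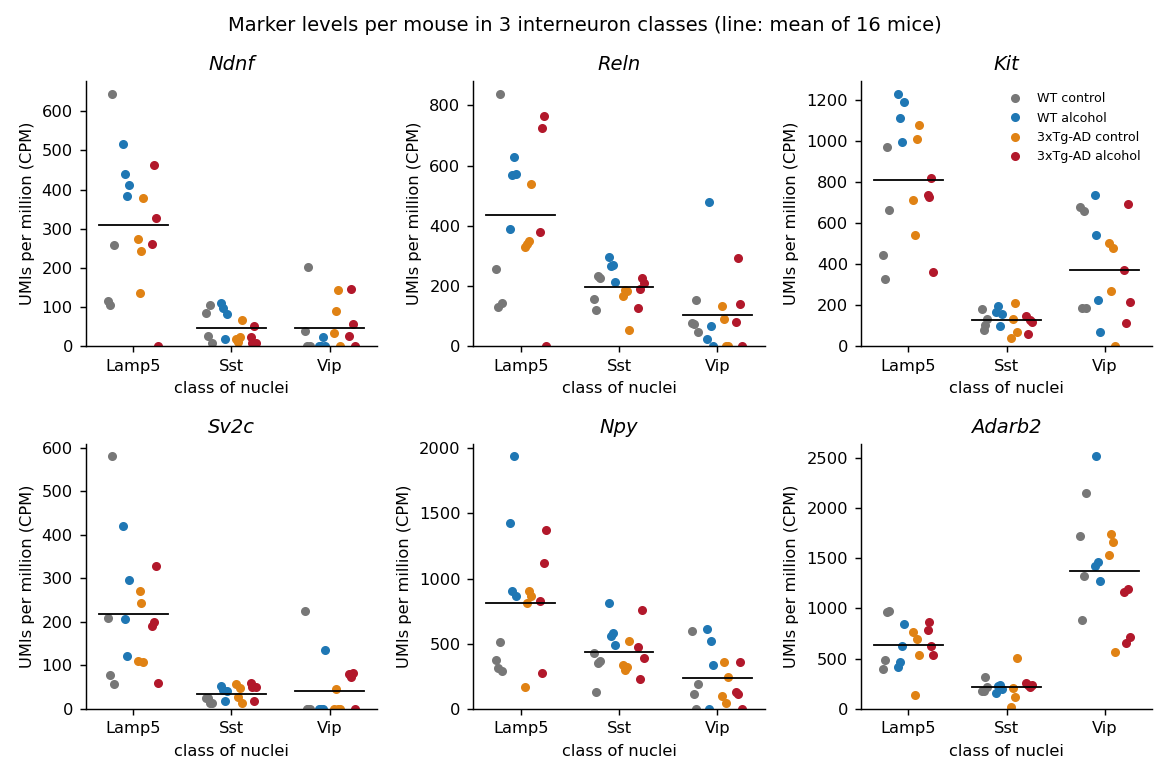
Level of Ndnf, Reln, Kit, Sv2c, Npy and Adarb2 (CPM) in the Lamp5, Sst and Vip nuclei of each of the 16 mice, colored by group, with the mean of the mice as a line. Ndnf, Reln, Kit, Sv2c and Npy have their highest mean in Lamp5 interneurons, and Adarb2 has its highest in Vip nuclei.

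To place the Lamp5 interneurons among the GABAergic classes, UMIs were summed per mouse and class and compared within mice. Classes with at least 10 nuclei in a mouse entered, which left 13 mice for Lamp5 (3xTg-AD controls 12 and 13 and alcohol-exposed 3xTg-AD mouse 34 were dropped), 16 for Sst, 13 for Vip and 3 for Pvalb (WT controls 26 and 27 and alcohol-exposed WT mouse 17). Of 1505 genes, edgeR called 154 (10.2%) between Lamp5 and Sst nuclei, of which 97 were higher in Lamp5 interneurons. It called 106 (7.04%) against Vip nuclei, with 65 higher, and 39 (2.59%) against Pvalb nuclei, with 18 higher. The genes of the rule were left out. Higher than in each of the 3 other classes were 10 genes (0.664%), and 1 gene (0.0664%) was lower than in each.

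Among the 10 genes, 4 were Lamp5 neuron markers. Kit stood at 806 ± 291 CPM in Lamp5 interneurons, 125 ± 49.8 CPM in Sst nuclei and 369 ± 244 CPM in Vip nuclei (SD, n = 16 mice). Its log2 difference was 2.69 ± 0.16 against Sst, 4.05 ± 0.57 against Pvalb and 0.98 ± 0.18 against Vip (SE, edgeR adjusted p of 9.75e-23, 4.7e-07 and 7.87e-05). Kit lies on chromosome 5 (chr5:75574916-75656722, mm10). Mice overlapped between the Lamp5 and Vip nuclei for this gene and did not overlap between Lamp5 and Sst nuclei, where the highest mouse stood at 208 CPM and the lowest in Lamp5 interneurons at 327 CPM.

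Ndnf (chr6:65671590-65712326) stood at 309.9 ± 169.9 CPM in Lamp5 interneurons, 46.0 ± 38.4 CPM in Sst nuclei and 47.3 ± 64.4 CPM in Vip nuclei (SD, n = 16). The log2 differences were 2.75 ± 0.25, 2.88 ± 0.79 and 2.59 ± 0.36 against Sst, Pvalb and Vip (SE, edgeR adjusted p of 2.16e-18, 0.0173 and 1.07e-08). In the Lamp5 interneurons of alcohol-exposed 3xTg-AD mouse 34, which had 7 such nuclei, both Ndnf and Reln were at 0 UMIs. Reln (chr5:21884454-22344702) was higher by 1.16 ± 0.17 against Sst, 2.86 ± 0.55 against Pvalb and 2.06 ± 0.26 against Vip. Npy (chr6:49822710-49829507) was higher by 0.77 ± 0.18, 2.46 ± 0.53 and 1.63 ± 0.27. Both are also known from Sst cells, where the difference was the smallest of the 3 for each of them. In the Lamp5 interneurons of WT controls, listed with the group contrasts below, Npy lay on both sides of the 463 CPM of all Sst nuclei together.

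The other 6 genes were no markers of the list. Nfib, a nuclear factor I family transcription factor, stood at 807 ± 205 CPM against 218 ± 62.2 CPM in Sst nuclei and 444 ± 182 CPM in Vip nuclei, with log2 differences of 1.74, 2.48 and 0.65 against Sst, Pvalb and Vip. The netrin receptor Unc5c was higher by 1.56, 2.09 and 1.60, and the neuronal adaptor Nyap2 by 1.76, 3.19 and 1.37. Cacna2d1, an auxiliary subunit of voltage-gated calcium channels and the target of gabapentin, was higher by 1.80, 1.80 and 0.84. Grin2a, a subunit of the NMDA receptor, stood at 1046 ± 270.0 CPM against 488 ± 153 CPM in Sst and 393 ± 275 CPM in Vip nuclei, with differences of 1.07, 1.11 and 1.32. Kctd16, an auxiliary subunit of the GABA-B receptor that shapes its response, stood at 829.8 ± 378 CPM against 378 ± 99.3 and 551 ± 192 CPM, with differences of 1.13 ± 0.12, 1.20 ± 0.30 and 0.70 ± 0.15 (SE, edgeR adjusted p of 5.65e-14, 0.00745 and 5.71e-04). This fit took all groups together. In the Lamp5 interneurons of WT controls, listed with the group contrasts below, Kctd16 lay on both sides of this Sst mean and below this Vip mean. The class difference was not tested in WT controls alone. Ntrk3, the receptor of neurotrophin-3, was lower than in each class, by log2 differences of -0.66, -1.81 and -0.73, and lost this call against Vip nuclei with any of 6 mice left out and against Pvalb nuclei without alcohol-exposed WT mouse 17 (-0.76, edgeR adjusted p = 0.720). Values and calls against Pvalb nuclei rest on 3 mice and moved with mouse 17. With a mouse left out, the log2 difference against Pvalb nuclei ranged from 3.69 to 8.22 for Kit, 2.56 to 6.52 for Ndnf, 2.64 to 7.08 for Reln and 1.86 to 6.199 for Unc5c, with the highest value of each without mouse 17. Without that mouse Kit, Nfib, Nyap2 and Reln were the 4 genes still higher than in each class.

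**Figure D3:**
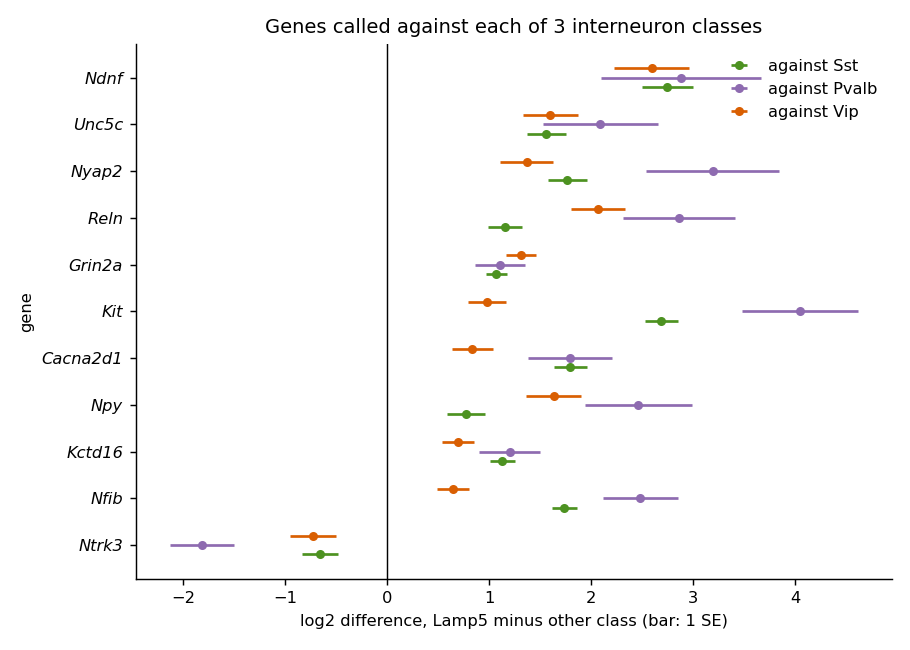
Log2 difference of the 11 genes called against each of the 3 other classes (horizontal axis, Lamp5 minus other class, with bars of 1 SE, in edgeR over 13 mice for Lamp5, 16 for Sst, 3 for Pvalb and 13 for Vip). Ndnf to Nfib lie to the right of 0 against every class, Ntrk3 lies to the left, and the bars against Pvalb are the widest.

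Without the Pvalb nuclei, 41 genes (2.72%) were higher in Lamp5 interneurons than in both Sst and Vip nuclei and 12 (0.797%) were lower than in both. By list, 5 of the 12 Lamp5 neuron markers were tested, and all 5 (Ndnf, Kit, Sv2c, Reln and Npy) were higher than in Sst and in Vip nuclei. Their median log2 difference was 2.56 against Sst, where that of all tested genes was -0.0011. Sv2c was higher by 2.56 ± 0.31 and 2.44 ± 0.44. The 7 markers below the filter could not be tested, among them Eya4, Cxcl14 and Plch2, each more frequent in another class. A gene could pass this filter through 1 class alone. Sv2c stood at 199.6 CPM in all Lamp5 interneurons together, 34.1 CPM in Sst and 41.1 CPM in Vip nuclei. The 5 calls and their median are therefore no separate check of the label. The same filter was used for all genes compared between classes.

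Of 6 caudal and 6 medial lineage markers, 2 of each were tested. The caudal pair gave 1 higher and 1 lower call against Sst nuclei (10.2% of all genes called), 1 higher call against Pvalb nuclei (2.59%) and 2 lower calls against Vip nuclei (7.04%), and the medial pair gave 1 lower call against Sst and 1 higher call against Vip nuclei. Adarb2 was higher by 1.57 ± 0.23 than in Sst nuclei and by 2.77 ± 0.71 than in Pvalb nuclei, and lower than in Vip nuclei by a log2 difference of -1.04 ± 0.23. Npas1, a transcription factor of caudal-lineage cells, was lower than in Sst nuclei (-2.40 ± 0.40) and in Vip nuclei (-3.00 ± 0.45). Of the markers of the medial lineage, the chromatin organizer Satb1 was lower than in Sst nuclei (-1.81 ± 0.27), and Nxph1, a neurexin ligand, was higher than in Vip nuclei (1.31 ± 0.31). Of the markers of the other classes, 1 was tested for Sst, 1 for Pvalb and 2 for Vip, and 1 of each was called lower against its own class, where 10.2%, 2.59% and 7.04% of all genes were called. These were Grin3a, an NMDA receptor subunit, against Sst (-2.08), Kcnc1, a fast potassium channel, against Pvalb (-1.06), and the peptide precursor Tac2 against Vip (-4.02), while the second tested Vip marker, the growth factor Igf1, stood at -1.005 ± 0.398 without a call (edgeR adjusted p = 0.122). Grin3a was found in 29.4% of Sst nuclei and 10.7% of Lamp5 interneurons, and Tac2 in 18.3% of Vip nuclei and 1.38% of Lamp5 interneurons. Both could pass the filter through their own class, and neither passed it in Lamp5 interneurons alone. Their lower calls are therefore no separate check of the label, and the shares of all genes called are no measure for them. Cnr1, the cannabinoid receptor, and Cck, the cholecystokinin precursor, were lower than in Vip nuclei by differences of -1.58 and -0.66. Npy1r, a receptor of neuropeptide Y, was lower than in Vip nuclei by -1.75 ± 0.49, and with Cnr1, Cck and the higher Npy it makes up the 4 tested genes of neuropeptides and their receptors. Gm42418 was lower than in Vip nuclei by -0.28 ± 0.09 (edgeR adjusted p = 0.0435).

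Of 4 tested genes of GABA synthesis, release, uptake and GABA-B receptors, 2 were higher than in Sst nuclei (10.2% of all genes called) and 1 than in Vip nuclei (7.04%). Of 6 tested genes of GABA-A receptors and the inhibitory postsynapse, 2 were higher than in Sst and 1 than in Vip nuclei. None of either list was called lower, and against Pvalb nuclei, where 2.59% of all genes were called, neither list held a call. Gabbr2, the signaling subunit of the GABA-B receptor that Kctd16 binds, was higher than in Sst nuclei by 0.76 ± 0.17. The GABA-A receptor subunit Gabrg3 was higher than in Sst and Vip nuclei by 0.86 and 1.18, and stood at -0.42 ± 0.46 against Pvalb nuclei (edgeR adjusted p = 0.804). Gabrd, the delta subunit of extrasynaptic GABA-A receptors known from neurogliaform cells, had 35 UMIs in the Lamp5 interneurons of all mice together and was not tested. It was named after its values were seen.

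Glutamate receptors divided by subunit. Of 11 tested genes, 3 were higher and 3 lower than in Sst nuclei, where 10.2% of all genes were called, 4 were higher than in Vip nuclei, where 7.04% were called, and 1 was higher and 1 lower than in Pvalb nuclei, where 2.59% were called. The AMPA receptor subunit Gria1 was lower than in Sst (-1.12 ± 0.14) and Pvalb nuclei (-1.17 ± 0.29), whereas Gria4 was higher than in Sst (0.39 ± 0.13) and Vip nuclei (1.05 ± 0.19). Grik1 was higher by 0.52 and 0.90 against the same classes. Gria3 was lower than in Sst nuclei (-0.37) and higher than in Vip nuclei (0.73).

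Ion channels had calls in both directions. Of 10 tested potassium and HCN channels, 2 were higher and 1 lower than in Sst nuclei (10.2% of all genes called), 1 higher and 2 lower than in Pvalb nuclei (2.59%), and 1 higher than in Vip nuclei, which is near the 7.04% of all genes called there. Kcnc2 was lower than in Sst (-1.28 ± 0.24) and Pvalb nuclei (-2.18 ± 0.40). Kcnn2, a small-conductance calcium-activated channel, was higher than in both by 1.52 ± 0.18 and 1.72 ± 0.47. Kcnh7 was higher than in Sst and Vip nuclei by 0.71 and 0.72. Of 14 tested calcium channel and store genes, 4 were higher and 2 lower than in Sst nuclei (10.2% of all genes called), 4 higher and 1 lower than in Vip nuclei (7.04%), and 1 higher and 1 lower than in Pvalb nuclei (2.59%). The 4 higher genes against Sst and Vip nuclei were Cacna2d1, the L-type channel Cacna1d, the calcium release channel Itpr1 and the calcium pump Atp2b1. Of the other auxiliary subunits of this family, Cacna2d3 was lower than in Sst (-1.66 ± 0.23) and Vip nuclei (-1.54 ± 0.29) and stood at 2.78 ± 1.01 against Pvalb nuclei without a call (edgeR adjusted p = 0.138). Cacna2d2 was lower than in Sst (-1.25 ± 0.28) and Pvalb nuclei (-2.13 ± 0.48) and stood at 1.31 ± 0.54 against Vip nuclei without a call (adjusted p = 0.151).

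Of 16 tested cell adhesion genes, 7 were lower and 2 higher than in Sst nuclei (10.2% of all genes called), 3 lower and 1 higher than in Vip nuclei (7.04%), and 2 lower and 1 higher than in Pvalb nuclei (2.59%). Against Sst nuclei, the neuregulin receptor Erbb4 (0.84 ± 0.13) and the contactin Cntn5 (1.23 ± 0.17) were the higher genes, and Cntnap5a, Ntm and Pcdh7 were lower by differences of -1.60, -1.17 and -0.91. The presynaptic receptor Nrxn3 was lower than in Sst (-0.52) and Vip nuclei (-0.88). Of 4 tested genes of reelin signaling, Reln and Dab1, which transmits the reelin signal inside cells, were higher than in Sst nuclei (Dab1 by 1.47 ± 0.25), and 1 gene, Reln, was higher than in Pvalb and in Vip nuclei. Among 10 tested Alzheimer disease genes, App was lower than in Vip nuclei (-0.43 ± 0.13, edgeR adjusted p = 0.0265) and no other call was made, which is 1 of 10 genes where 7.04% of all genes were called.

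Between groups, the Lamp5 interneurons of 13 mice were compared over 1046 genes, after 3xTg-AD controls 12 and 13 and alcohol-exposed 3xTg-AD mouse 34 were dropped for fewer than 10 nuclei. This left 2 3xTg-AD controls. In all, 5 different genes were called in at least 1 of 8 contrasts. In simulated counts of the same mice over 1043 genes, 87.0% of 4-fold changes and 41.8% of 2-fold changes were found for alcohol-exposed 3xTg-AD mice against WT controls, so that many 2-fold changes would not show at this depth. The simulation gave every gene the same dispersion (0.0455) and every mouse the same profile before the changes, so the shares in the real mice may be lower. Contrasts that share the WT controls are not independent of each other.

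Kctd16 was lowest in WT controls, with 488, 366, 258 and 346 CPM in mice 26, 27, 28 and 36, where 21, 28, 4 and 12 UMIs were counted. In alcohol-exposed WT mice it stood at 905, 826, 1135 and 1072 CPM in mice 6, 7, 17 and 18. The 3xTg-AD controls 12, 13, 14 and 21 had 768, 542, 662 and 970.5 CPM. All of them lay above every WT control. The alcohol-exposed 3xTg-AD mice (4, 31, 33 and 34) had 994, 1173, 1695 and 1075 CPM, above all controls of either genotype. Against WT controls, Kctd16 was higher by 1.60 ± 0.28 on the log2 scale in alcohol-exposed 3xTg-AD mice (SE, edgeR adjusted p = 9.20e-05, 2 genes or 0.191% called) and by 1.23 ± 0.28 in alcohol-exposed WT mice (edgeR adjusted p = 0.00821, 2 genes or 0.191% called). Over both genotypes, mice exposed to alcohol exceeded controls by 0.94 ± 0.22 (edgeR adjusted p = 0.0367), and it was the 1 gene (0.0956%) called in that contrast.

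The first of these calls held with each of the 13 mice left out (1.37 to 1.81), with all 16 mice, and in DESeq2 (1.62). The alcohol contrast lost its call with any of 7 mice left out and in DESeq2 (adjusted p = 0.739). The contrast of alcohol-exposed WT mice lost it without mouse 17 (adjusted p = 0.0607) and in DESeq2 (adjusted p = 0.218). In Sst nuclei the contrast of alcohol-exposed 3xTg-AD mice against WT controls gave 0.40 (edgeR adjusted p = 0.643), and in Vip nuclei 0.33 (adjusted p = 0.843). The difference between Lamp5 and Sst nuclei in this contrast was 1.31 ± 0.30 (edgeR adjusted p = 0.0390 over 3330 genes). That difference ranged from 1.18 to 1.43 with a mouse left out and lost its call without WT control 26, 27, 28 or 36 and without alcohol-exposed 3xTg-AD mouse 4, 31 or 33 (adjusted p from 0.0551 to 0.267). For alcohol-exposed WT mice against WT controls the difference between Lamp5 and Sst nuclei was 1.23 ± 0.29 (edgeR adjusted p = 0.0505), and for alcohol over both genotypes 1.02 ± 0.24 (adjusted p = 0.0591), neither of which was called.

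**Figure D4:**
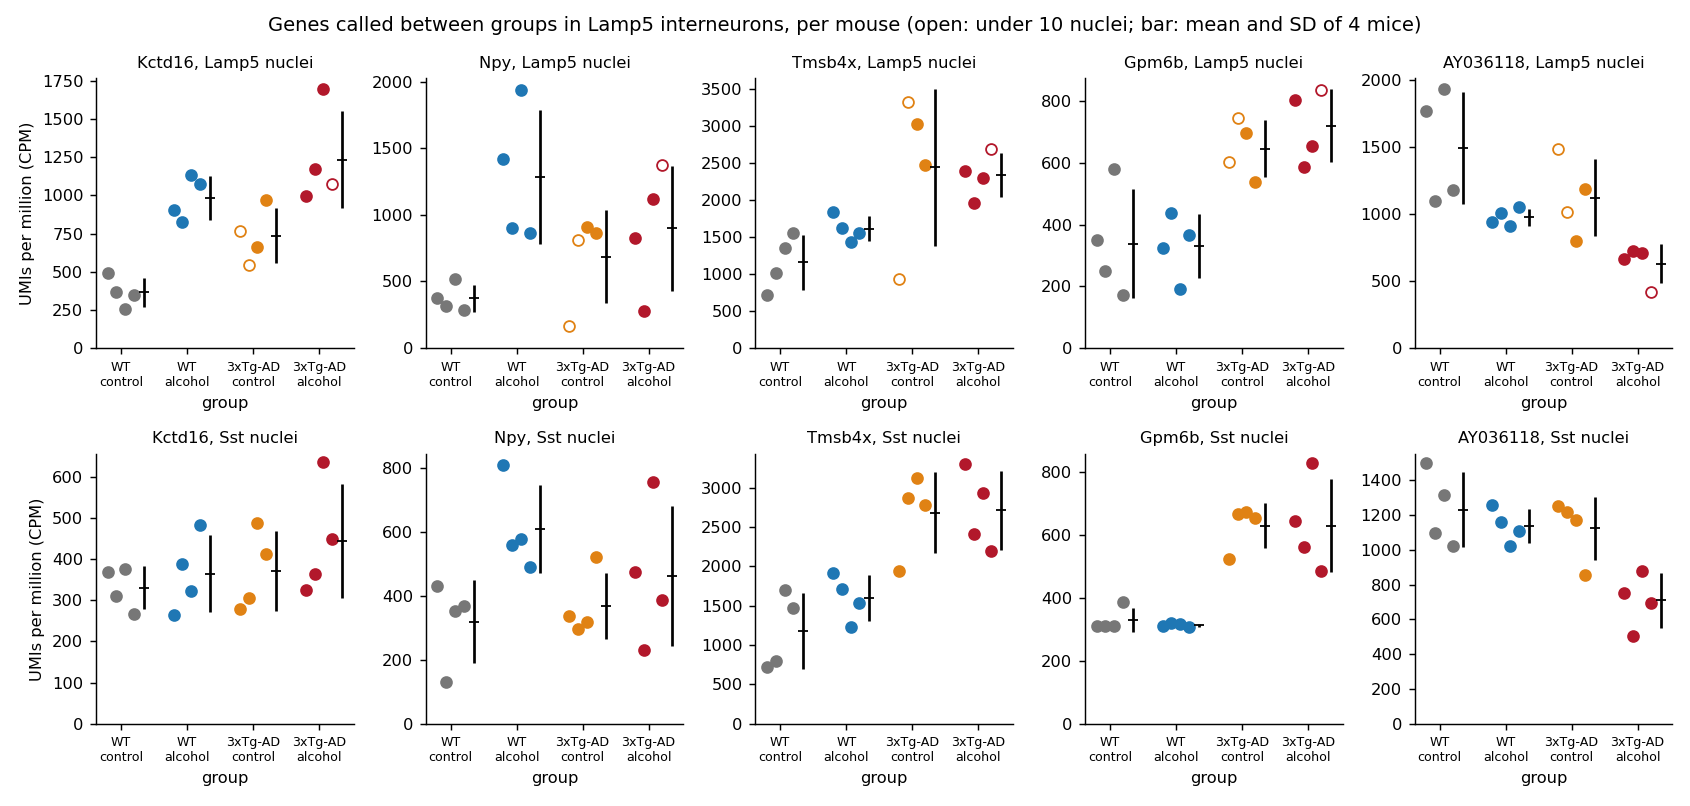
Level of the 5 genes called between groups (CPM) in the Lamp5 nuclei (upper row) and Sst nuclei (lower row) of each mouse, with the mean and SD of the 4 mice as a bar, and open points for mice with fewer than 10 nuclei. Kctd16 has its lowest 4 points in WT controls in Lamp5 nuclei and overlapping groups in Sst nuclei, while Tmsb4x, Gpm6b and AY036118 have a like order of groups in both rows.

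The marker content of the nuclei differed between mice as well. At least 3 of 12 Lamp5 neuron markers were found in 35%, 17.5%, 50% and 20% of the nuclei of the 4 WT controls and in 57.9%, 54.2%, 65.0% and 72.7% of those of the alcohol-exposed WT mice. In the 3xTg-AD controls the shares were 42.9%, 44.4%, 43.8% and 40.0%, and in the alcohol-exposed 3xTg-AD mice 61.9%, 56.3%, 52.9% and 28.6%. The summed level of the 12 markers was 1190 to 3742 CPM in WT controls and 3616 to 4487 CPM in alcohol-exposed WT mice. It was 1975 to 3127 CPM in 3xTg-AD controls and 2031 to 3772 CPM in alcohol-exposed 3xTg-AD mice. The ranges of all the other groups overlapped that of the WT controls. In the nuclei with at least 3 markers, Kctd16 stood at 814, 1019.9, 238 and 992 CPM in WT controls 26, 27, 28 and 36, and at 1309, 1056, 1546 and 1290.2 CPM in WT mice 6, 7, 17 and 18 exposed to alcohol. In the 3xTg-AD controls it stood there at 1217, 681, 856 and 875 CPM, and in the alcohol-exposed 3xTg-AD mice at 1378, 1372, 1653 and 3236 CPM. The lowest of these values, in WT control 28, rests on 2 UMIs in 5 nuclei, and the highest, in mouse 34, on 15 UMIs in 2 nuclei. In the nuclei with fewer than 3 markers the WT groups overlapped, with 339, 184, 282 and 181 CPM in WT controls and 318, 465, 225 and 223 CPM in alcohol-exposed WT mice. There the 3xTg-AD controls had 561, 450, 504 and 1064 CPM and the alcohol-exposed 3xTg-AD mice 372, 760, 1770 and 248 CPM.

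Within these marker-rich nuclei of all 16 mice Kctd16 kept its direction and lost its calls. The difference was 0.98 for alcohol-exposed 3xTg-AD mice (edgeR adjusted p = 0.0875) and 0.65 for alcohol-exposed WT mice (adjusted p = 0.459), both against WT controls. It was 0.77 for alcohol over both genotypes (adjusted p = 0.0706). Without the nuclei with a Meis2 UMI, in all 16 mice, the difference was 1.09 for alcohol-exposed 3xTg-AD mice (adjusted p = 0.0390) and 0.82 for alcohol-exposed WT mice (adjusted p = 0.271). The differences were of the same sign in both of these subsets and smaller than in the main fit. The main fit used 13 mice, so against it the nuclei and the mice changed together. The fit of all members of all 16 mice, named above, kept the call for alcohol-exposed 3xTg-AD mice against WT controls. The part of the makeup of the nuclei in the Kctd16 result was not tested.

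**Figure D5:**
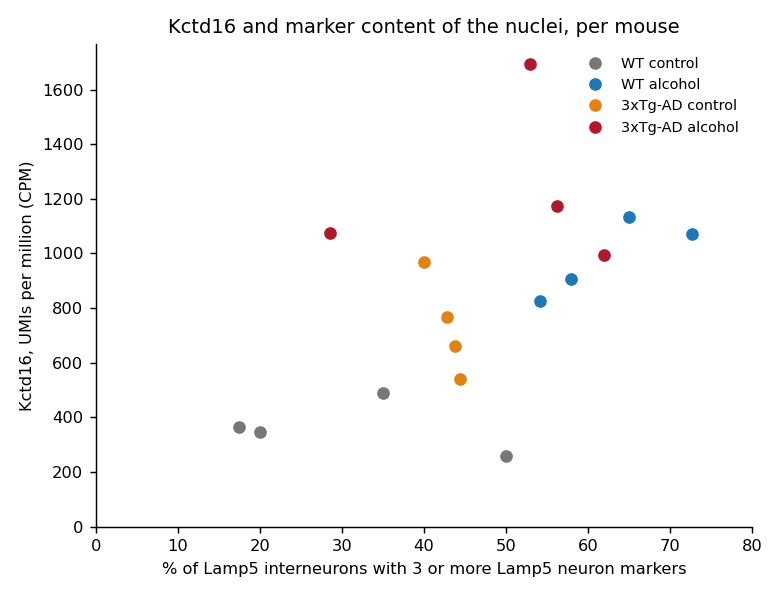
Kctd16 level of each mouse (vertical axis, CPM) against the share of its Lamp5 interneurons with at least 3 of 12 Lamp5 neuron markers (horizontal axis, %), colored by group. WT controls lie at the bottom with shares of 17.5% to 50%, and alcohol-exposed WT mice lie at 54.2% to 72.7%.

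Npy stood at 372, 314, 516 and 288 CPM in WT controls 26, 27, 28 and 36. In WT mice 6, 7, 17 and 18 exposed to alcohol it stood at 1423, 904, 1938 and 867 CPM, with no overlap. The 3xTg-AD controls 12, 13, 14 and 21 had 165, 813, 906 and 863 CPM, and the alcohol-exposed 3xTg-AD mice (4, 31, 33 and 34) had 829, 278, 1121 and 1374 CPM, so that in each of these groups 1 mouse lay below the lowest WT control. Alcohol-exposed WT mice exceeded WT controls by 1.75 ± 0.33 (log2, SE, edgeR adjusted p = 0.00754). The call was lost without WT control 36 (adjusted p = 0.0599), with all 16 mice in the fit (0.136) and without nuclei with a Meis2 UMI (0.347). With a mouse left out the difference stayed between 1.42 and 1.92. In Sst nuclei the same contrast gave 0.89 (edgeR adjusted p = 0.561) and in Vip nuclei 0.66 (adjusted p = 0.870), and the difference between Lamp5 and Sst nuclei was 0.86 ± 0.29 (adjusted p = 0.723). Npy is itself among the 12 Lamp5 neuron markers, so the marker content given above contains this difference and is not a separate measure.

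Tmsb4x encodes thymosin beta 4, which binds monomeric actin, and lies on the X chromosome (chrX:167207093-167209315). It stood at 721, 1007, 1355 and 1556 CPM in WT controls 26, 27, 28 and 36, and at 1843, 1627, 1432 and 1551 CPM in WT mice 6, 7, 17 and 18 exposed to alcohol. It stood at 933, 3319.8, 3031 and 2480.1 CPM in 3xTg-AD controls 12, 13, 14 and 21, and at 2391, 1960.5, 2296 and 2688 CPM in 3xTg-AD mice 4, 31, 33 and 34 exposed to alcohol. All 3xTg-AD mice but mouse 12, which had 17 UMIs of Tmsb4x, lay above all WT mice. WT control 26, mouse 12 and WT control 27 had the lowest values of all mice, and they are the mice with the most Gm42418. Mouse 12 was dropped from the fit, and both of these WT controls stayed in it. Over both treatments 3xTg-AD mice exceeded WT mice by 0.85 ± 0.17 (log2, SE, edgeR adjusted p = 0.00346, 2 genes or 0.191% called), and 3xTg-AD controls exceeded WT controls by 1.22 ± 0.27 (edgeR adjusted p = 0.0116, 1 gene or 0.0956% called). The genotype call was lost without 3xTg-AD control 14, which left 1 3xTg-AD control in the fit. It was also lost in DESeq2 (adjusted p = 0.0784), without a filter on low counts (0.189) and with the Gm42418 level as a covariate (0.137). With a mouse left out the genotype difference stayed between 0.70 and 0.93. The call against WT controls was lost without WT control 26 or 27 or 3xTg-AD control 14 or 21 (0.0529 to 0.601). DESeq2 did not call Tmsb4x between 3xTg-AD controls and WT controls either. Sst nuclei showed the genotype difference as well, at 0.98 (edgeR adjusted p = 7.98e-07), and Vip nuclei at 1.18 (adjusted p = 9.63e-05).

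Gpm6b, a proteolipid family membrane protein of neurons and glia, is also on the X chromosome (chrX:166238911-166388988). It ranged from 173 to 581 CPM in WT controls, from 192 to 439 CPM in alcohol-exposed WT mice, from 539 to 745 CPM in 3xTg-AD controls and from 587 to 836 CPM in alcohol-exposed 3xTg-AD mice. Of the WT mice, WT control 28 alone, with 9 UMIs, reached the range of the 3xTg-AD mice. The genotype difference was 1.02 ± 0.25 (log2, SE, edgeR adjusted p = 0.0441), and its call was lost with any of 11 of the 13 mice left out (0.0513 to 0.564). DESeq2 did not call Gpm6b between the genotypes. In Sst nuclei the difference was 0.95 (edgeR adjusted p = 3.12e-06), and in Vip nuclei 0.58 (adjusted p = 0.622).

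AY036118 is a noncoding transcript of the ribosomal RNA-associated list on chromosome 17 (chr17:39847113-39848035, minus strand), inside the span of Gm42418 on the other strand (chr17:39846958-39848788). It stood at 1767, 1099, 1936 and 1181 CPM in WT controls 26, 27, 28 and 36, and at 663, 726, 711 and 418 CPM in 3xTg-AD mice 4, 31, 33 and 34 exposed to alcohol, with no overlap. The range was 908 to 1049 CPM in alcohol-exposed WT mice and 801 to 1481 CPM in 3xTg-AD controls. The difference between alcohol-exposed 3xTg-AD mice and WT controls was -1.16 ± 0.26 (log2, SE, edgeR adjusted p = 0.00812). The summed level of the 4 ribosomal RNA-associated transcripts was 5877 to 34233 CPM in WT controls and 3581 to 3703 CPM in alcohol-exposed 3xTg-AD mice. Without WT controls 26 and 27 and 3xTg-AD control 12, which had the most Gm42418, the difference was -1.05 and no longer called (adjusted p = 0.0958). It also lost its call without WT control 26 (0.0791) or alcohol-exposed 3xTg-AD mouse 4 (0.0746) or 33 (0.0651), and in DESeq2. In Sst nuclei the difference was -0.84 (edgeR adjusted p = 0.0215), and in Vip nuclei it was -0.74 without a call (adjusted p = 0.323).

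No gene was called in alcohol-exposed 3xTg-AD mice against 3xTg-AD controls, against alcohol-exposed WT mice, or in the interaction of genotype and alcohol by edgeR (0% of genes each), with 55, 63 and 60 genes at an unadjusted p under 0.05 and none called by DESeq2. Apart from the genes above, no tested member of a list was called between groups. For the interferon-stimulated (19 genes), activity-dependent (14), oligodendrocyte (6), microglia (6), vascular (4), oligodendrocyte precursor (3), gap junction (5), Sst (5) and Vip (5) lists no member passed the filter on low counts, so that none of their genes was tested. Beside the groups, the summed astrocyte markers were 1281 to 1886 CPM in the Lamp5 interneurons of alcohol-exposed 3xTg-AD mice and 628 to 1161 CPM in those of WT controls. These ranges did not overlap, in the contrast of a Kctd16 call and of the AY036118 call. Oligodendrocyte markers were 129 to 209 CPM in alcohol-exposed WT mice and 233 to 432 CPM in WT controls, with no overlap, which is the contrast of the Npy call and of a Kctd16 call. Glutamatergic markers were 933 to 1186 CPM in 3xTg-AD controls and 1151 to 1814 CPM in WT controls, the contrast of a Tmsb4x call. The part of these markers in the results was not tested. Of the 2 genes that the study names for Lamp5 neurons, Cntnap5c had 3 UMIs and Cmss1 10 UMIs in all Lamp5 interneurons, and both were left out by the filter on low counts. In the fit without that filter, neither was called in any of the 8 contrasts (edgeR, unadjusted p of 0.154 to 0.974 and adjusted p of 0.796 or more), with SEs of up to 2.37 on the log2 scale. For alcohol-exposed 3xTg-AD mice against WT controls, Cntnap5c stood at -1.62 ± 1.57 and Cmss1 at 0.18 ± 1.37. In that contrast the study reported Cntnap5c higher and Cmss1 lower, in Lamp5 neurons assigned with a reference dataset and not by the present rule. The UMIs counted here are too few to compare the directions.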

How the data were processed

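Single nuclei of the PFC of 16 mice, 4 in each of 4 groups, were sequenced on the 10x Genomics platform. Per the labels, the authors aligned the reads to mm10 with Cell Ranger 6.1.1 and deposited the UMI counts of all nuclei in 1 table, without normalization. The study filtered nuclei by limits that are not given in the sources used here, and whether intronic reads were counted is not given either, and no nucleus of the table was removed. Mice are separate animals, and each nucleus was assigned to its mouse by its label. No doublet caller was run. The rule left out nuclei with a UMI of Sst, Pvalb, Vip or Slc17a7, but other markers of other cells remained in the chosen nuclei, so doublets and free RNA were not excluded.

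Each mouse gave 4955 to 9096 nuclei and 9622031 to 17544364 UMIs. Counts were summed per mouse over the chosen nuclei and compared in R 4.3.3 with edgeR 4.0.16 (normalization by TMM, filterByExpr, robust quasi-likelihood fit with a mean per group). P-values were adjusted by Benjamini-Hochberg over all genes of a contrast and called at 0.05 or below. A mouse needed 10 nuclei, or 5 with and 5 without Ndnf in the Ndnf split. Classes were compared in the same way with mouse as a block. CPM are UMI counts of a gene divided by all UMIs of the summed nuclei, times 1e+06. Shares were compared by exact permutation tests (scipy). DESeq2 1.42.0, other filters, other members and each mouse left out were tried as alternatives. The script was tested on simulated data with the same dispersion for every gene. There 100% of 4-fold and 96.8% of 2-fold changes were found between Lamp5 and Sst nuclei (1481 genes).

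The text names the called genes, the called members of 33 gene lists with at most 4 abundant members of each, the genes of the rule, and 2 genes named in the study. The members and lists were chosen with earlier results of these data known. Some called members of the lists are not reported here.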

Additional observations from a re-analysis of the deposited data

Results flagged for a closer look

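Of 72 groups of 4 mice checked for a value far from the other 3, 5 held such a value, and chance alone gives about 1 in 20 groups. Meis2 stood at 1766 CPM in WT control 27 and at no more than 115 CPM in the other WT controls. Npy stood at 165 CPM in 3xTg-AD control 12, the lowest of its group by far. Reln stood at 539 CPM in 3xTg-AD control 21, above 329 to 348 CPM in the other 3. Gm42418 stood at 10917 CPM in 3xTg-AD control 12. The median depth of the Lamp5 interneurons was 2841 UMIs in alcohol-exposed WT mouse 17.

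The difference between Lamp5 and Sst nuclei in a group contrast was called for 5 genes by edgeR over 3330 genes. For alcohol-exposed 3xTg-AD mice against WT controls these were Kctd16 (1.31 ± 0.30, adjusted p = 0.0390) and the acetyltransferase Kat6b (2.83 ± 0.66, adjusted p = 0.0390), where Kat6b was under the filter in Lamp5 interneurons alone and stood at -0.83 in Sst nuclei. For 3xTg-AD controls against WT controls these were the ATP synthase subunit Atp5a1 (-3.46 ± 0.82) and Srgap3 (2.19 ± 0.51), both at an adjusted p of 0.0480. For alcohol-exposed WT mice against WT controls it was the prostaglandin synthase Ptgds (3.22 ± 0.42, adjusted p = 3.86e-09), an abundant transcript of leptomeningeal cells, at 1.37 in Lamp5 interneurons and -1.95 in Sst nuclei, neither of which was called in its own class (adjusted p of 0.551 and 0.692).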

How the results depend on the processing

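Under the alternatives, values were recomputed for the genes called between groups, against each class and in the Ndnf split. Their direction was kept in all 969 recomputed values, of which 116 lost their call. The other genes named in the text were not followed in this way. Calls between groups and in the Ndnf split changed with the processing, and the cause was not tested. DESeq2 called 0 genes for genotype, 0 for alcohol, 1 for alcohol-exposed 3xTg-AD mice against WT controls, 0 for 3xTg-AD controls and 1 for alcohol-exposed WT mice against WT controls. In the same order, no filter on low counts gave 4 for the third, 0 for the fourth and 4 for the fifth, and 1 between the genotypes exposed to alcohol. The Gm42418 level as a covariate gave 4, 2, 1 and 2 genes for the first 4 contrasts and 1 for the interaction. Without the 3 mice with the most Gm42418 these were 6, 2, 1 and 6, with 4 between the genotypes exposed to alcohol and 1 for the interaction. Of the alternatives added after seeing the data, which all dropped the minimum of 10 nuclei in a mouse as well, all 16 mice gave 3 for alcohol, 2 for 3xTg-AD controls and 1 for alcohol-exposed WT mice. Members without a Meis2 UMI gave 4 for genotype, 0 for alcohol, 5 for alcohol-exposed 3xTg-AD mice, 0 for alcohol-exposed WT mice and 3 between the genotypes exposed to alcohol. At least 3 Gad UMIs gave 2 for alcohol, 4 for alcohol-exposed 3xTg-AD mice, 0 for 3xTg-AD controls and 1 between the genotypes exposed to alcohol, and at least 3 markers gave 1 for genotype, 3 for alcohol and 0 for 3xTg-AD controls. With a mouse left out, the counts ranged from 0 to 5 for genotype, 0 to 3 for alcohol, 1 to 14 for alcohol-exposed 3xTg-AD mice, 0 to 3 for 3xTg-AD controls and 2 to 14 for alcohol-exposed WT mice against WT controls, with both counts of 14 without WT control 28. They ranged from 0 to 1 between the 3xTg-AD groups, 0 to 2 between the genotypes exposed to alcohol and 0 to 3 for the interaction. The genes higher than in each class were 5 in DESeq2 and 4 to 10 with a mouse left out. Those lower were 0 in DESeq2 and 0 without the 3 mice richest in Gm42418, 2 with the minimum lowered to 1 nucleus, 4 with that minimum and Lamp5 of at least 2 UMIs, 4 with that minimum and without Meis2 nuclei and 0 to 1 with a mouse left out. The Ndnf split gave 23 without a filter and 1 to 15 with a mouse left out. Differences in the share of Gad nuclei, none of them called, changed sign after thinning (0.975 for genotype, -0.528 for alcohol, 0.447 for alcohol-exposed 3xTg-AD mice and 1.37 for 3xTg-AD controls against WT controls, -0.920 between the 3xTg-AD groups), with Lamp5 of at least 2 UMIs (0.217, -0.0892, 0.128 and 0.128 for the first 4), and with all nuclei as denominator (-0.0271 between the genotypes exposed to alcohol), in percentage points. With a mouse left out, the share differences ranged from -0.686 to 0.0313 for genotype, -0.120 to 0.597 for alcohol, -0.800 to 0.619 for alcohol-exposed 3xTg-AD mice, -1.66 to -0.334 for 3xTg-AD controls, -1.34 to 0.194 for alcohol-exposed WT mice, 0.305 to 1.62 between the 3xTg-AD groups and -0.223 to 1.19 between the genotypes exposed to alcohol. Groups with Lamp5 of at least 2 UMIs (0 mice with 10 nuclei) could not be fitted under the minimum of nuclei in a mouse. The same held for members with at most 1 UMI of glutamatergic, glial and vascular markers together (36 nuclei), and for the Lhx6 split (14 nuclei). No paired analysis was possible because no mouse numbers are shared between groups. With 7 to 40 nuclei in a mouse, the depth limits calls to abundant genes and large changes, and a Lamp5 count of 1 limits how surely a nucleus is named.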
